A study of Mus musculus with 2 samples.

Results

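The 7 genes described here, Nectin1, Nectin2, Nectin3, Nectin4, Epcam, Cdh1 and Cdh3, encode proteins that hold epithelial cells to their neighbours. They were chosen by name, with earlier results of these data known. They are 7 of the 31054 features counted in the normal library and of the 32285 features counted in the wounded library, and all 7 were found in both. The cells came from the anorectal junction of pooled K17CreERT2;R26RGFP mice on the C57/BL6J background, in which a Cre under the Krt17 promoter is switched on by tamoxifen, given 2 times before both conditions. The normal library was made from mice without a wound, and the wounded library from mice 1 week after a wound of the rectum. By the methods of the study, this wound was made with hot EDTA and then an electric brush, after an injection of METACAM. Ages are given as 6 to 8 weeks for mice of the lineage experiments in general and as 2 to 4 months for mice of this genotype given a wound, without saying which held for each library. Live cells were sorted on Epcam protein, and cells with CD45, CD11b, CD31 or PDGFRa were gated out, so 1 of the 7 genes encodes the protein that selected the cells. Each condition is 1 library, so values below have no replicate check, the condition and the library cannot be told apart, and no p-value is given.

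In epithelia, nectins are immunoglobulin-like adhesion molecules that bind nectins on the next cell, often of another kind, and hold the linker afadin (Afdn) inside the cell. The classical cadherins E-cadherin (Cdh1) and P-cadherin (Cdh3) bind in a calcium-dependent way and hold the catenins, which tie them to actin, and P-cadherin is known from basal layers and hair follicles. Epcam is an adhesion molecule of simple and progenitor epithelia that associates with claudin-7 (Cldn7) and can be cut by the protease matriptase (St14). The anorectal junction joins a stratified anal epithelium to the single-layered, glandular rectum through a transition zone (TZ), so it sets these adhesion systems side by side.

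On the mouse GRCm38 assembly, Cdh3 (chr8:106510891-106557297, plus strand) and Cdh1 (chr8:106603351-106670246, plus strand) are neighbours 46.1 kb apart. Epcam is at chr17:87635979-87651129 on the plus strand. The nectin genes lie apart from each other, Nectin1 at chr9:43743984-43807461 (plus), Nectin2 at chr7:19716644-19750483 (minus), Nectin3 at chr16:46387706-46498525 (minus) and Nectin4 at chr1:171370099-171388598 (plus). The promoter windows of Epcam, Nectin3 and Nectin4, genes whose RNA parted rectal from stratified cells, are shown because repressors of the Snai and Zeb families, counted in the same cells, are known to bind the letters CACCTG, read CAGGTG on the other strand. The windows are from RefSeq on GRCm38.p6, run 5′ to 3′ on the strand of the gene from 250 bases before to 50 bases after its start, and have the motif in capitals. The RefSeq starts of Nectin2, Nectin3 and Nectin4 lie inside the gene spans given above, which come from another annotation. Of the 7 genes, 4 were matched in that table, which held no entry for Nectin1, Cdh1 or Cdh3.
Epcam, chr17:87635729-87636028, plus strand: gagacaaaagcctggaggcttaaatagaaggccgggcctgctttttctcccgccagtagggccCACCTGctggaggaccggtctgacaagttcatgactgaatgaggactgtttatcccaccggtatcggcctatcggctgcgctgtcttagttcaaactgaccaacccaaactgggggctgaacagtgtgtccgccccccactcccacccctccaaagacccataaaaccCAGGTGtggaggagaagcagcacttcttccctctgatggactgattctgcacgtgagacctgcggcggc
Nectin3, chr16:46496918-46497217, minus strand: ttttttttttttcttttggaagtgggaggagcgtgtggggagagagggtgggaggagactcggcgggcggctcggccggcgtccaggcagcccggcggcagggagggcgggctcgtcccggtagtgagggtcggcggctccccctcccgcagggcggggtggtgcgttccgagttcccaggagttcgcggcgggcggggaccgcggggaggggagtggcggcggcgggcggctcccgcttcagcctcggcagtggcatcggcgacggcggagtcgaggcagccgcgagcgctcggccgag
Nectin4, chr1:171369923-171370222, plus strand: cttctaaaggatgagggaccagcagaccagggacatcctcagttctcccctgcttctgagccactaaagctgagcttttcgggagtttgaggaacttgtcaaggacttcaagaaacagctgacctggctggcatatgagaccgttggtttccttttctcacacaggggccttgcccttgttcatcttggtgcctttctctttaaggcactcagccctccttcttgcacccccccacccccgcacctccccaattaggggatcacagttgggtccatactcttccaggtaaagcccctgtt
The Epcam window holds the motif 2 times, at positions -187 and -19 from the start, the Nectin2 window (chr7:19749524-19749823, minus strand) holds it 1 time at -53, and the Nectin3 and Nectin4 windows hold none. Of 32851 promoter windows of this length, 20.2% hold it at least 1 time on either strand, so its presence is common and a match is no evidence of binding. The Nectin3 window is 73.7% G and C, against 53.3% for Nectin4 and 57.0% for Epcam.

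The deposited tables name 939 normal cells as Basal (257 cells), Suprabasal (187), Anal Canal (432) or Rectum (63), and 4147 wounded cells as Basal (573), Suprabasal (1032), Regeneration (991), Wound_Stress (838), Rectum (397) or Hybrid (316). Basal and Suprabasal in the normal library are the 2 layers of the TZ. Median depth of named cells was 9724 unique molecular identifiers (UMIs) in the normal and 10077 in the wounded library, and it was lowest in Hybrid at 2390. No barcode was shared between the named cells of the libraries. A level adds up the UMIs a cluster holds for a gene and gives them per 1000000 UMIs of the same cells (CPM), with an exact 95% Poisson interval in brackets, and all intervals in the text cover counting error only. Tags were counted at the 3′ end and not scaled to length, so levels are set side by side between clusters and not between genes.

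Some wounded names go against the leading genes of their cells. Wounded Basal carried the anal canal keratins and Psca, with Krt13 at 1443 CPM, Krt10 at 1987 CPM and Psca at 1315 CPM, as did normal Anal Canal (812, 2228 and 679.97 CPM) and unlike normal Basal (2.96, 48.4 and 1.48 CPM). Wounded Suprabasal split mostly into 470 cells led by Krt15 (Krt15 2283, Sostdc1 185 and Cst6 958 CPM) and 462 cells led by Cst6 (Krt15 172, Sostdc1 17.9 and Cst6 87112 CPM). In the normal library these values were 2878, 224 and 1437 CPM in Basal and 439, 39.9 and 87278 CPM in Suprabasal. The split was made by clustering without the 7 genes, and both ways of matching the libraries are given below. Of the 257 normal Basal cells, 26 clustered with anal gland-like cells that have no deposited name, and 5 with Rectum cells. They were kept in normal Basal throughout, and their part in its values was not tested. Rectum bore its name in both libraries, with 8 rectal markers summing to 5873 CPM in the normal and 4705 CPM in the wounded library against 74.4 to 185 CPM in the stratified clusters.

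**Figure D1:**
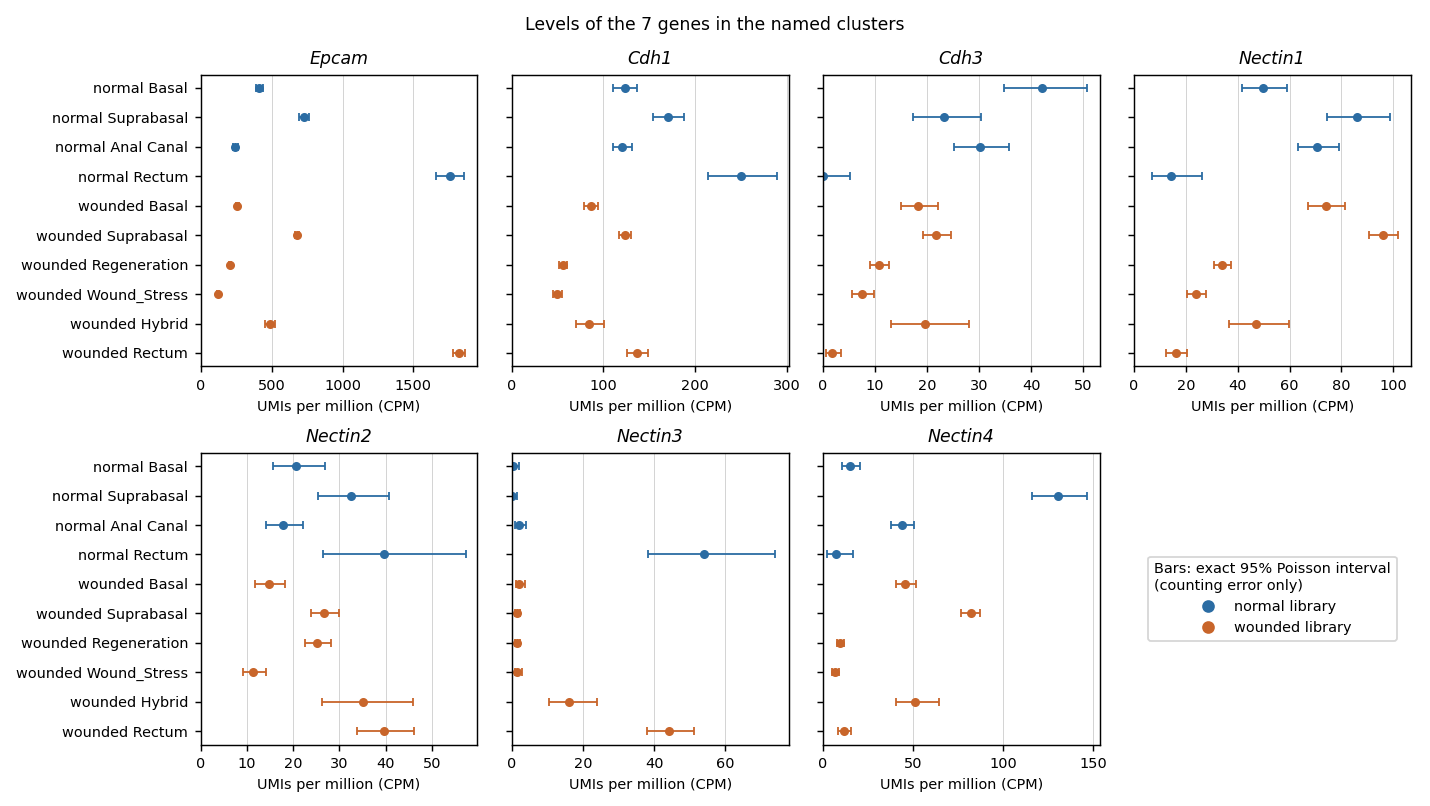
Levels of the 7 genes in the 4 normal (blue) and 6 wounded (orange) named clusters, in CPM with exact 95% Poisson intervals for counting error; each panel has its own axis. Epcam and Nectin3 were highest in both Rectum clusters, while Nectin1 and Cdh3 were lowest there.

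Epcam was measured at 413 CPM [389 to 438] in normal Basal, 728 [693 to 764] in Suprabasal, 246 [231 to 261] in Anal Canal and 1755 [1659 to 1856] in Rectum. In the wounded library it stood at 259 CPM [246 to 272] in Basal, 679.5 [665 to 695] in Suprabasal, 205 [197 to 213] in Regeneration, 124 [116 to 132] in Wound_Stress, 485.5 [451 to 522] in Hybrid and 1822 [1781 to 1864] in Rectum. Both Rectum clusters were therefore at the top, Suprabasal of both libraries followed, and Wound_Stress was lowest. Ordered by level, 7 of the 9 neighbouring pairs of the 10 clusters were parted beyond counting error. The pairs that were not parted were the 2 Rectum clusters, and wounded Basal with normal Anal Canal. The sort on Epcam protein applied to all these cells, and its part in the range of Epcam RNA was not tested.

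Within clusters, Epcam counts spread widely. A rectal cell held a median of 16 Epcam UMIs and at most 59 in the normal library, and a median of 15 and at most 152 in the wounded library. Medians were 6 in normal Suprabasal and 2 in normal Basal. After each cell was thinned to 2000 UMIs, Epcam was detected in 88.3% of normal Rectum cells, 61.7% of Suprabasal, 44.3% of Basal and 35.3% of Anal Canal cells (unthinned 96.8%, 90.9%, 86.8% and 66.7%). In the wounded library the thinned shares were 95.2% in Rectum, 61.3% in Suprabasal, 49.5% in Hybrid, 31.2% in Basal, 30.3% in Regeneration and 20.7% in Wound_Stress. Too shallow to be thinned and left out were 2 to 35 cells of each normal cluster, 5 to 43 of each wounded cluster but Hybrid, and 132 of Hybrid. Fibroblast-like cells of the same library, which should lack the gene, gave 3.87% [1.57 to 7.81] of 181 thinned cells (11.2% unthinned, median depth 7766 UMIs). The Epcam share of every named cluster was above that background.

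E-cadherin (Cdh1) had its highest level, 249.9 CPM [214 to 290], in normal Rectum, followed by 170 [154 to 188] in Suprabasal, 123 [110 to 137] in Basal and 120 [110 to 131] in Anal Canal. Wounded levels were 136 CPM [125 to 148] in Rectum, 123 [117 to 130] in Suprabasal, 86.4 [79.0 to 94.4] in Basal, 84.3 in Hybrid, 55.9 [51.9 to 60.1] in Regeneration and 49.6 [44.7 to 54.9] in Wound_Stress. Every named cluster thus carried Cdh1, and Regeneration and Wound_Stress were lowest.

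P-cadherin (Cdh3) was measured at 42.1 CPM [34.8 to 50.6] in normal Basal, 30.1 [25.2 to 35.7] in Anal Canal and 23.2 [17.4 to 30.4] in Suprabasal. In normal Rectum no Cdh3 UMI was counted in 63 cells, where 3 UMIs would be 4.26 CPM. In wounded Rectum 7 UMIs in 397 cells gave 1.70 CPM [0.685 to 3.51], and the thinned share was 0 of 354 cells there, of which 3 would be 0.847%, with an exact upper limit of 1.04%. The other wounded levels were 21.8 CPM [19.2 to 24.6] in Suprabasal, 19.6 in Hybrid, 18.3 [15.0 to 22.1] in Basal, 10.7 [8.99 to 12.6] in Regeneration and 7.51 [5.67 to 9.75] in Wound_Stress. Cdh3 RNA was thus near the counting floor in cells named Rectum of both libraries while Cdh1 was not.

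The Cdh3 share of Cdh1 and Cdh3 UMIs together does not depend on how cells are scaled, although it depends on how well each transcript is captured, so only its differences between clusters are described. It was 25.5% [21.5 to 29.8] of 447 UMIs in normal Basal, 20.03% [17.04 to 23.3] in Anal Canal and 12.0% [9.11 to 15.4] in Suprabasal (exact Clopper-Pearson intervals). The Krt15-led wounded cells gave 27.9% [24.3 to 31.8] and the Cst6-led wounded cells 6.81% [5.34 to 8.54], so the basal-to-suprabasal step in the share was seen in both libraries once the wounded name was split. Undivided, wounded Suprabasal gave 15.0% and wounded Basal 17.5%. Regeneration stood at 16.1% [13.7 to 18.7] and Wound_Stress at 13.1% [10.1 to 16.7]. Among groups with at least 100 UMIs of both genes together, the largest shares were in hair follicle-like cells without a deposited name, at 34.1% [28.0 to 40.5] in the normal and 34.0% [28.7 to 39.6] in the wounded library. In normal rectal cells the share was 0 of 176 UMIs, of which 3 would be 1.70%, with an exact upper limit of 2.07%, and in wounded rectal cells it was 1.23%.

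**Figure D2:**
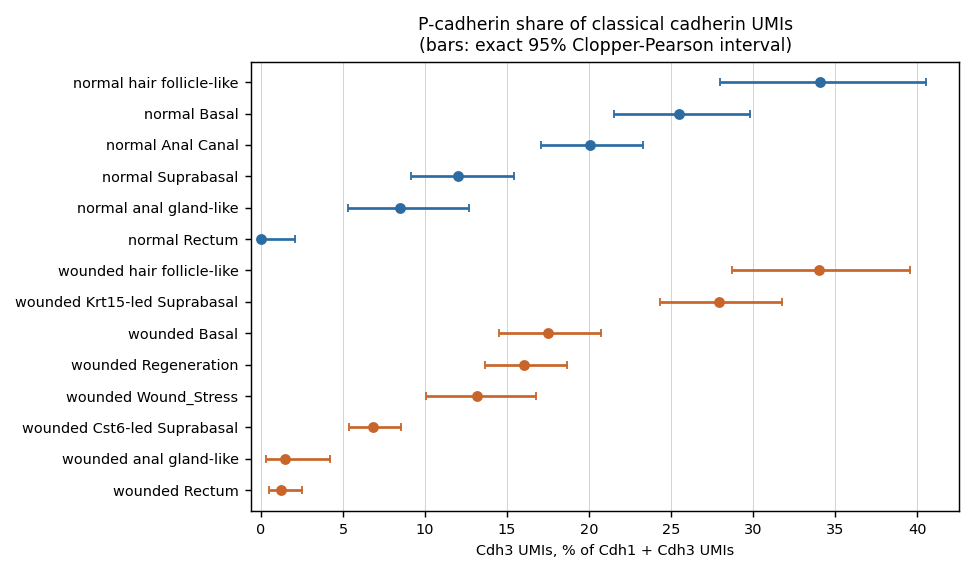
Cdh3 UMIs as a percentage of Cdh1 plus Cdh3 UMIs in named clusters, split Suprabasal cells and cells without a deposited name, normal in blue and wounded in orange, with exact 95% Clopper-Pearson intervals. Shares ran from 34.1% in normal hair follicle-like cells to 0 of 176 UMIs in normal Rectum.

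Nectin4, a nectin known from skin and other stratified epithelia, differed widely among the stratified clusters. Its levels were 15.2 CPM [10.9 to 20.6] in normal Basal, 131 [116 to 146] in Suprabasal, 43.8 [37.8 to 50.5] in Anal Canal and 7.10 [2.31 to 16.6] in Rectum. In the wounded library it was measured at 82.0 CPM [76.9 to 87.4] in Suprabasal, 45.6 [40.3 to 51.5] in Basal, 51.2 in Hybrid, 11.7 [8.61 to 15.5] in Rectum, 9.61 [8.0 to 11.5] in Regeneration and 6.57 [4.86 to 8.68] in Wound_Stress. Splitting wounded Suprabasal gave 123 CPM [115 to 131] in the Cst6-led cells and 20.6 [16.4 to 25.7] in the Krt15-led cells, side by side with the normal Suprabasal and Basal levels. Nectin4 UMIs were absent from 181 thinned fibroblast-like cells, of which 3 would be 1.66%, with an exact upper limit of 2.02%, while 19.7% of thinned normal Suprabasal cells held one.

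Nectin1, the partner that can bind both Nectin3 and Nectin4, had its highest levels in stratified clusters. It was measured at 85.9 CPM [74.3 to 98.8] in normal Suprabasal, 70.8 [63.1 to 79.1] in Anal Canal, 49.9 [41.8 to 59.1] in Basal and 14.2 [6.81 to 26.1] in Rectum. Wounded levels were 96.2 CPM [90.6 to 102] in Suprabasal, 73.9 [67.0 to 81.2] in Basal, 47.2 in Hybrid, 34.1 [31.0 to 37.4] in Regeneration, 24.0 [20.6 to 27.8] in Wound_Stress and 16.1 [12.4 to 20.4] in Rectum. Fibroblast-like wounded cells held 15.9 CPM [10.3 to 23.5], so both Rectum levels were near that of cells without an epithelial name. The interval of Wound_Stress, a stratified cluster, also overlapped that of the fibroblast-like cells. The 2 Suprabasal clusters and then wounded Basal and normal Anal Canal led the order, with no neighbours among these 4 parted beyond counting error. Clusters further apart in it were parted, as wounded Suprabasal was from wounded Basal at a log2 ratio of 0.38 [0.22 to 0.55].

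Nectin3 showed the reverse placement. It was measured at 54.0 CPM [38.2 to 74.1] in normal Rectum, from 38 UMIs in 63 cells, and at 44.3 [38.1 to 51.2] in wounded Rectum, from 182 UMIs in 397 cells. The 3 stratified normal clusters held 1, 0 and 9 UMIs (0.370 CPM in Basal, none in Suprabasal where 3 UMIs would be 1.31 CPM, and 2.05 CPM in Anal Canal), and wounded Basal, Suprabasal, Regeneration and Wound_Stress held between 1.38 and 2.09 CPM. Hybrid lay between at 16.2 CPM [10.4 to 24.1]. Fibroblast-like cells also carried the gene, at 49.6 CPM [39.2 to 61.9] and in 12.7% [8.23 to 18.5] of thinned cells, so they give no background for it. In normal Rectum the 6 fibroblast markers summed to 1.42 CPM, with 1 of the 6 detected, beside 54.0 CPM of Nectin3. In wounded Rectum the fibroblast markers summed to 242 CPM, against 25379 CPM in the fibroblast-like cells.

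Nectin2 had the order with the fewest parted neighbours. Levels were 39.8 CPM [26.4 to 57.5] in normal Rectum, 32.4 [25.5 to 40.7] in Suprabasal, 20.7 [15.6 to 26.9] in Basal and 17.8 [14.1 to 22.2] in Anal Canal. In the wounded library they ran from 39.7 CPM [33.8 to 46.2] in Rectum and 35.1 in Hybrid through 26.7 in Suprabasal, 25.2 in Regeneration and 14.8 in Basal to 11.4 in Wound_Stress. None of the 9 neighbouring pairs in its order was parted beyond counting error, although the ends of the order lay apart. Fibroblast-like wounded cells held 21.0 CPM [14.4 to 29.5], and Basal of both libraries, Anal Canal and Wound_Stress were no higher than that.

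For comparisons between clusters, a gene is called when its levels differ at least 2-fold, the exact binomial 95% interval of the log2 ratio excludes 0 and the 2 groups hold at least 20 UMIs together. The clusters were formed from these same cells, so calls are a description, and the share of all genes called in the same comparison is given for scale. In the normal library the study defined suprabasal TZ cells by Nectin4 among other genes, and rectal cells by Epcam among others. Calls of Nectin4 in normal Suprabasal and of Epcam in normal Rectum are thus no independent result. The sorting strategy of the study took stratified and TZ cells as low and glandular cells as high in Epcam protein, and was kept for wounded cells. Differences of Epcam between Rectum and stratified clusters are therefore not independent of the sort in either library. In the wounded library the study identified TZ cells by Nectin4 and Krt6a among other genes. Differences of Nectin4 between named wounded clusters are therefore not independent of the naming either. Several comparisons share a reference cluster and are therefore not independent of each other.

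From normal Basal to Suprabasal, 1 of the 6 genes tested was called, where 21.9% of all tested genes were. That gene was Nectin4, higher in Suprabasal at a log2 ratio of 3.11 [2.63 to 3.61]. Epcam was higher by 0.82 [0.71 to 0.93], Nectin1 by 0.78 [0.46 to 1.11] and Cdh1 by 0.47 [0.25 to 0.68], all short of 2-fold. Cdh3 was lower at a log2 ratio of -0.86 [-1.36 to -0.38], the 1 gene of the 6 in that direction. Their median was 0.72, against -0.29 over all tested genes. The ratio of Nectin2 was 0.65 [0.13 to 1.17]. Nectin4 was thus the gene called between these layers, and it is a gene by which the study defined the suprabasal cells. The other ratios stayed within 2-fold.

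Repeated in the wounded library by the deposited names, Suprabasal over Basal again had 1 call, of 7 genes tested and beside 20% of all genes. The called gene was Epcam at a log2 ratio of 1.39 [1.31 to 1.47], with Nectin4 at 0.85 [0.65 to 1.05] and Cdh3 at 0.25 [-0.08 to 0.59]. Between the Cst6-led and the Krt15-led cells named Suprabasal, 2 of 6 were called beside 27.1% of all genes, and both had the direction of the normal layers. Nectin4 was higher in the Cst6-led cells at 2.57 [2.24 to 2.92] and Cdh3 lower at -2.07 [-2.50 to -1.66]. Epcam was higher by 0.98 [0.90 to 1.06] in that split. By the deposited names the interval of Cdh3 held 0, so these gave it no direction between layers.

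Normal Anal Canal was set against the TZ clusters Basal and Suprabasal together, and 1 of 6 genes was called beside 17.8% of all genes. Epcam was lower in Anal Canal at a log2 ratio of -1.18 [-1.28 to -1.08]. With the whole numbers of the deposited table in place of the counts, the Epcam ratio was -0.99 and was no longer called. Nectin4 (-0.63 [-0.90 to -0.37]), Nectin2 (-0.55 [-0.97 to -0.13]) and Cdh1 (-0.27 [-0.43 to -0.10]) were lower within 2-fold, and the intervals of Nectin1 and Cdh3 held 0.

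Between cells named Rectum and the stratified clusters the 7 genes separated into 2 sets. The enteroendocrine-like cells under the Hybrid name, described below, were not part of this comparison. In the normal library 5 of 7 were called in Rectum over the stratified clusters, beside 25.9% of all genes, and in the wounded library 5 of 7 beside 30.6%. Nectin3 was higher at log2 ratios of 5.66 [4.63 to 6.83] and 4.80 [4.37 to 5.25], and Epcam at 2.09 and 2.41 [2.37 to 2.45]. Nectin1 was lower at -2.27 [-3.34 to -1.38] and -1.83 [-2.21 to -1.48], and Nectin4 at -3.00 [-4.63 to -1.77] and -1.65 [-2.10 to -1.24]. Cdh3 was at least 7.49-fold lower in normal Rectum, with 0 UMIs read as 3, and lower at -3.10 [-4.42 to -2.05] in wounded Rectum. Cdh1 (0.91 and 0.77) and Nectin2 (0.84 and 0.89) were higher in Rectum by less than 2-fold. Called higher in Rectum of both libraries were thus Epcam and Nectin3, and called lower Nectin1, Nectin4 and Cdh3. The stratified clusters were not alike in this, since Nectin4 in wounded Rectum (11.7 CPM) was not below Regeneration (9.61 CPM) or Wound_Stress (6.57 CPM).

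Wounded Rectum was itself mostly made of 284 cells led by Lypd8, a gene of absorptive colonocytes (Lypd8 4128, Spink4 424 CPM, median 6123 UMIs), and 108 cells led by Spink4, a goblet cell gene (Spink4 22537 CPM, median 12949.5 UMIs). Nectin3 was measured at 68.2 CPM [58.4 to 79.1] in the Lypd8-led and 5.49 [2.37 to 10.8] in the Spink4-led cells, a log2 ratio of 3.63 [2.62 to 4.87]. Nectin1 had 9.46 CPM (24 UMIs) in the Lypd8-led and 23.3 CPM (34 UMIs) in the Spink4-led cells (-1.30 [-2.12 to -0.51]). Fibroblast-like wounded cells held 15.9 CPM [10.3 to 23.5] of Nectin1. Nectin3 and Nectin1 were the 2 calls among 6 genes tested, beside 14.7% of all genes. Epcam, at 1877 and 1828 CPM, gave a ratio of 0.04 [-0.03 to 0.11], Nectin2 0.86 [0.32 to 1.43] and Cdh1 0.46 [0.19 to 0.73]. The high Nectin3 level of Rectum thus sat in the Lypd8-led cells, in which the fibroblast markers summed to 388 CPM against 8.24 CPM in the Spink4-led cells; their part in the Nectin3 value was not tested in this library.

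Regeneration and Wound_Stress are names found only in the wounded library. Against wounded Basal, 2 of 7 genes were called in Regeneration, beside 24.5% of all genes, and 4 of 7 in Wound_Stress, beside 22.3%. All of these calls were toward lower levels, a direction called for 13.4% and 12.5% of all genes. Nectin4 was lower at -2.25 [-2.57 to -1.93] in Regeneration and -2.80 [-3.27 to -2.35] in Wound_Stress, and Nectin1 at -1.12 [-1.31 to -0.92] and -1.62 [-1.88 to -1.37]. Cdh3 (-1.29 [-1.78 to -0.80]) and Epcam (-1.07 [-1.19 to -0.95]) were called in Wound_Stress, with values of -0.78 [-1.15 to -0.40] and -0.34 [-0.43 to -0.24] in Regeneration. Nectin2 was higher in Regeneration by 0.77 [0.42 to 1.13] and had an interval holding 0 in Wound_Stress. The median of the 7 was -0.63 in Regeneration and -1.07 in Wound_Stress, against -0.13 and 0.03 over all tested genes.

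Since wounded Basal had the leading genes of the anal canal, the Krt15-led cells were taken as a second reference. Against them 4 of 7 genes were called in Regeneration, beside 17.9% of all genes, and 5 of 7 in Wound_Stress, beside 15.9%, again all lower (11.3% and 10.3% of all genes in that direction). Cdh3 had ratios of -1.95 [-2.29 to -1.61] and -2.46 [-2.92 to -2.01], Epcam of -1.07 [-1.16 to -0.98] and -1.80 [-1.91 to -1.68], and Nectin1 of -1.30 [-1.51 to -1.09] and -1.81 [-2.08 to -1.54]. Nectin4 gave -1.10 [-1.52 to -0.68] and -1.65 [-2.19 to -1.12]. Cdh1 was called in Wound_Stress (-1.10 [-1.31 to -0.90]) and just short of 2-fold in Regeneration (-0.93 [-1.11 to -0.75]). Nectin2 remained the exception in Regeneration, at 0.58 [0.20 to 0.99].

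Markers of the anal gland moved with both clusters. The 8 markers summed to 2961 CPM in Regeneration and 1840 CPM in Wound_Stress, against 293 CPM in wounded Basal, 373 CPM in the Krt15-led cells and 8433 CPM in the anal gland-like cells without a name. Such overlap was not confined to these clusters, since 26 of 257 normal Basal cells fell into the normal anal gland-like cluster. Of the named wounded cells, 96 in Regeneration and 138 in Wound_Stress fell into the wounded anal gland-like cluster. Without them the sums were 2042 and 1543 CPM, and the Epcam levels 223 and 132 CPM. Nectin4 was 7.62 and 4.74 CPM without them and 21.6 and 16.7 CPM in the cells left out. Leaving them out gave 1 call in Regeneration over Basal in place of 2, with Nectin1 at -0.99, and 3 in Wound_Stress over Basal in place of 4, with Epcam at -0.97. At resolution 0.4 no wounded cluster met the rule for the anal gland-like name. Beyond this removal, the part of gland-like cells in the lower levels was not tested.

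**Figure D3:**
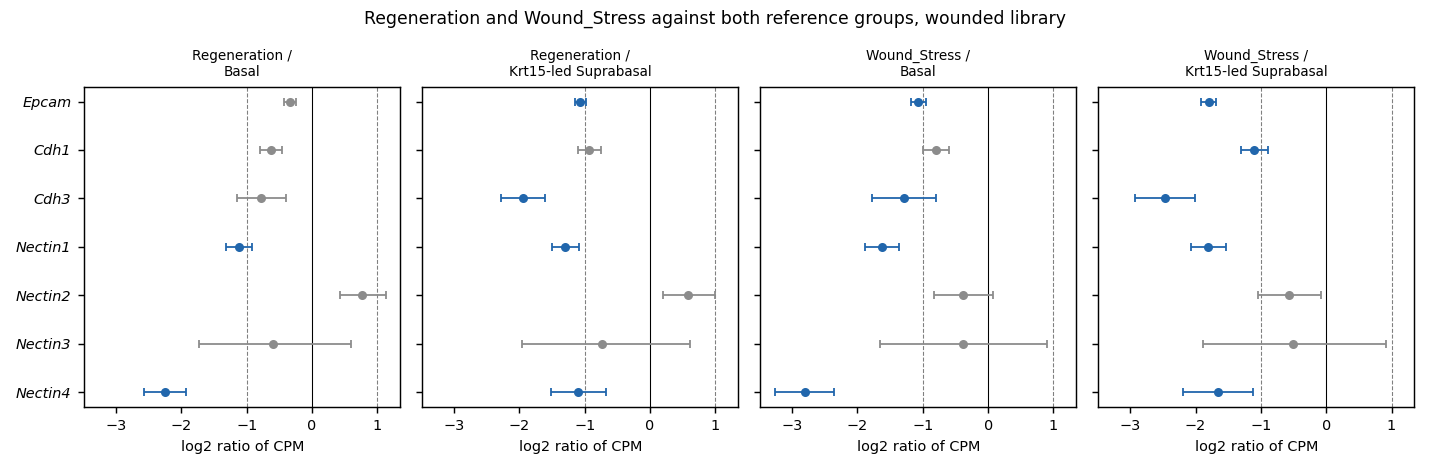
Log2 ratios of CPM (points) with exact 95% intervals (bars) for Regeneration and Wound_Stress over wounded Basal and over the Krt15-led cells named Suprabasal; blue marks genes called lower, grey genes not called, and dashed lines 2-fold. All called genes lie to the left of 0, and Nectin2 lies right of 0 in both Regeneration panels.

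Setting the libraries against each other by deposited name, 2 of 6 genes were called in Basal, beside 27.8% of all genes. Nectin4 was higher in wounded Basal at 1.59 [1.11 to 2.10] and Cdh3 lower at -1.20 [-1.60 to -0.81]. Neither was called in the 2 pairings that replace this one by leading genes. For wounded Basal over normal Anal Canal, 0 of 7 were called beside 16.3% of all genes, and Epcam (0.08 [-0.04 to 0.19]), Nectin1 (0.06 [-0.15 to 0.28]) and Nectin4 (0.06 [-0.22 to 0.33]) lay near 0. For the Krt15-led wounded cells over normal Basal, 0 of 6 were called beside 18.4%, with Cdh3 at -0.03 [-0.38 to 0.33], Epcam at 0.06 [-0.05 to 0.17] and Nectin1 at 0.75 [0.46 to 1.05]. For counting error alone, the intervals keep the Epcam and Cdh3 differences between these 2 libraries under 2-fold in that pairing. They hold no spread between mice or preparations. The named cells were also not selected alike, since the study filtered the normal library alone on Lgr5, Lhx2 and Tbx1 against hair follicle cells. The part of that filter in the differences between libraries was not tested.

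In Suprabasal, 0 of 6 genes were called between the libraries by name, beside 17.8% of all genes, and the largest ratio was that of Nectin4, -0.67 [-0.86 to -0.48]. Restricted to the Cst6-led wounded cells, 1 of 6 was called beside 15%, Cdh3 at -1.24 [-1.78 to -0.70] (9.82 CPM against 23.2), while Nectin4 was at -0.09 [-0.28 to 0.11]. Normal Suprabasal was not restricted in that way, and 18 of its cells clustered with 221 normal Basal cells. Their part in the Cdh3 ratio was not tested. In Rectum 0 of 6 were called beside 12.4%. Cdh1 was lower in wounded Rectum at -0.87 [-1.12 to -0.62], and the interval of Epcam, 0.05 [-0.03 to 0.14], was narrow around 0. Across the stratified and rectal pairings, Cdh1 was on the lower side in the wounded library each time, at -0.21 [-0.42 to 0.00] in the Krt15-led cells, -0.34 [-0.52 to -0.17] in the Cst6-led cells and -0.48 [-0.66 to -0.30] in Basal over Anal Canal. This was not particular to them. Normal and wounded Cdh1 levels were 111 and 81.8 CPM in hair follicle-like cells, and 56.6 and 30.5 CPM in anal gland-like cells. In barcodes that failed the filters they were 105 and 62.9 CPM.

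**Figure D4:**
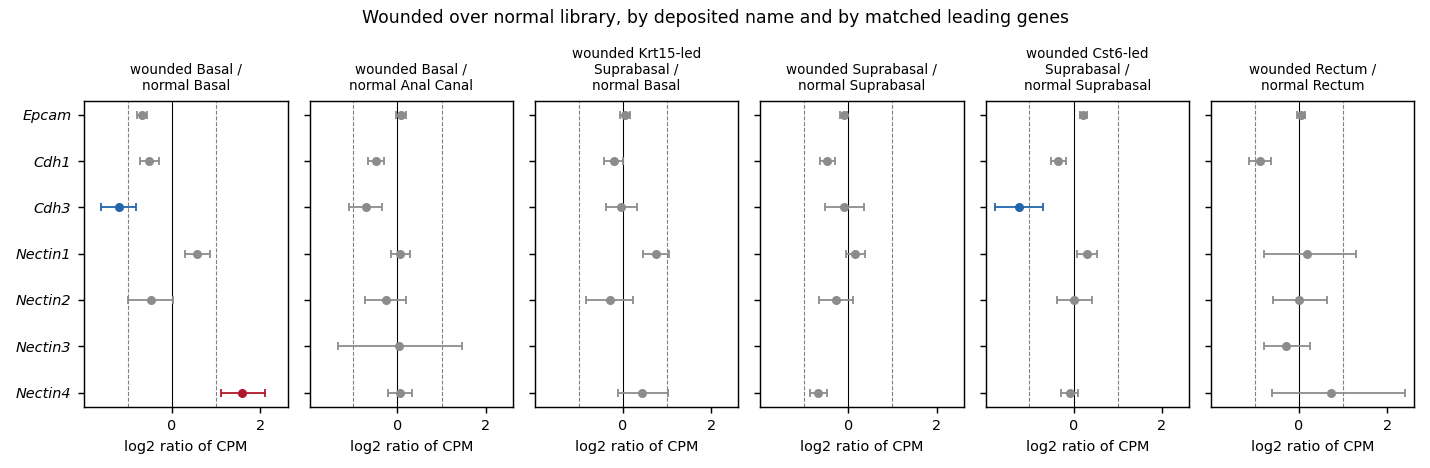
Log2 ratios of CPM, wounded over normal library, with exact 95% intervals, for clusters paired by deposited name and by leading genes; red and blue mark genes called higher and lower, grey genes not called. The 2 calls of the Basal pairing, Nectin4 and Cdh3, are absent from the pairings of wounded Basal with normal Anal Canal and of Krt15-led cells with normal Basal, and Cdh3 is called lower in Cst6-led cells over normal Suprabasal.

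Hybrid, with 24 Nectin3 UMIs in 16 cells and 7 of them in 1 cell, was set against Basal and against Rectum. Over Basal, 2 of 7 genes were called beside 18.1% of all genes, Nectin3 at 2.95 [1.90 to 4.09] and Nectin2 at 1.24 [0.72 to 1.76]. Over Rectum, 5 of 7 were called beside 24.9%. Cdh3 (3.52 [2.30 to 4.96]), Nectin4 (2.13 [1.59 to 2.69]) and Nectin1 (1.56 [1.05 to 2.06]) were higher, and Epcam (-1.91 [-2.02 to -1.80]) and Nectin3 (-1.45 [-2.13 to -0.83]) lower. By level Hybrid thus lay between Rectum and Basal for Epcam and Nectin3.

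Clustered again without the 7 genes, the 316 Hybrid cells fell into 5 groups, of which 3 could be named from markers. An enteroendocrine-like group of 60 cells (leading genes Pyy, Insl5 and Chgb) held Epcam at 687 CPM [625 to 754] and Cdh3 at 27.5 CPM. The Cdh3 share in this group was 25.7% [16.0 to 37.6] of 70 UMIs, and Nectin4 was at 33.6 CPM [21.1 to 50.9]. For Cdh3 and Nectin4 this group thus stood above the cells named Rectum. Nectin3 there was at 16.8 CPM from 11 UMIs in 10 cells. An inner root sheath-like group of 40 cells (Krt25, Krt71, Krt28), a hair follicle layer, held Nectin4 at 154 CPM [109 to 211]. Nectin1 there was at 93.1 CPM. Its 10 Nectin3 UMIs (40.5 CPM) sat in 3 cells, 1 of which held 7, so this level is mostly that of 1 cell. An endothelial-like group of 60 cells (Ccl21a, Lyve1, Prox1) and an unnamed group of 138 cells were shallow, with medians of 2160 and 1090.5 UMIs. They held Epcam at 254 and 327 CPM and no Nectin3 UMI. Immune cell genes (Cd7, Cd3d, Ptprc) were among the leading genes of the unnamed 138 cells. The 18 remaining cells, unnamed and led by Chgb and Chga, had Epcam at 496 CPM. The summed Hybrid levels are thus means over cells of unlike kinds, and 21 of its 24 Nectin3 UMIs came from the enteroendocrine-like and inner root sheath-like groups.

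Cells that passed the filters but have no deposited name numbered 610 in the normal and 1078 in the wounded library. Hair follicle-like cells (187 and 303) held Nectin4 at 136 CPM [117 to 157] and 93.0 CPM [81.4 to 106], Nectin1 at 69.1 and 102 CPM, Epcam at 478 and 319.6 CPM and Cdh3 at 57.4 and 42.1 CPM. None of the 7 genes tested was called between the libraries there, beside 16.4% of all genes. Anal gland-like cells (329 and 425) were low for most of the genes, with Epcam at 106.7 and 57.5 CPM, Cdh1 at 56.6 and 30.5 CPM, Nectin1 at 18.9 and 9.21 CPM, and 0 and 2 Nectin3 UMIs. In these cells 2 of 6 genes were called lower in the wounded library, beside 16.2% of all genes in that direction and 24.5% in either. They were Cdh3, with 21 UMIs (5.24 CPM) in the normal and 3 UMIs (0.453 CPM) in the wounded library (-3.53 [-5.92 to -1.79]), and Nectin1 (-1.04 [-1.55 to -0.54]). Nectin4 was higher by 0.72 [0.27 to 1.19].

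Among cells without an epithelial name, Nectin3 was the gene that stood out. Beside the fibroblast-like cells above, it was measured at 28.5 CPM [17.4 to 44.0] in 103 smooth muscle-like wounded cells and at 30.4 CPM [15.7 to 53.2] in 65 normal cells led by Actg2 and Col3a1. In those 3 groups Epcam was at 42.6, 34.2 and 7.61 CPM, Cdh1 between 5.07 and 5.69 CPM, and Nectin4 at 0 to 1.27 CPM.

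**Figure D5:**
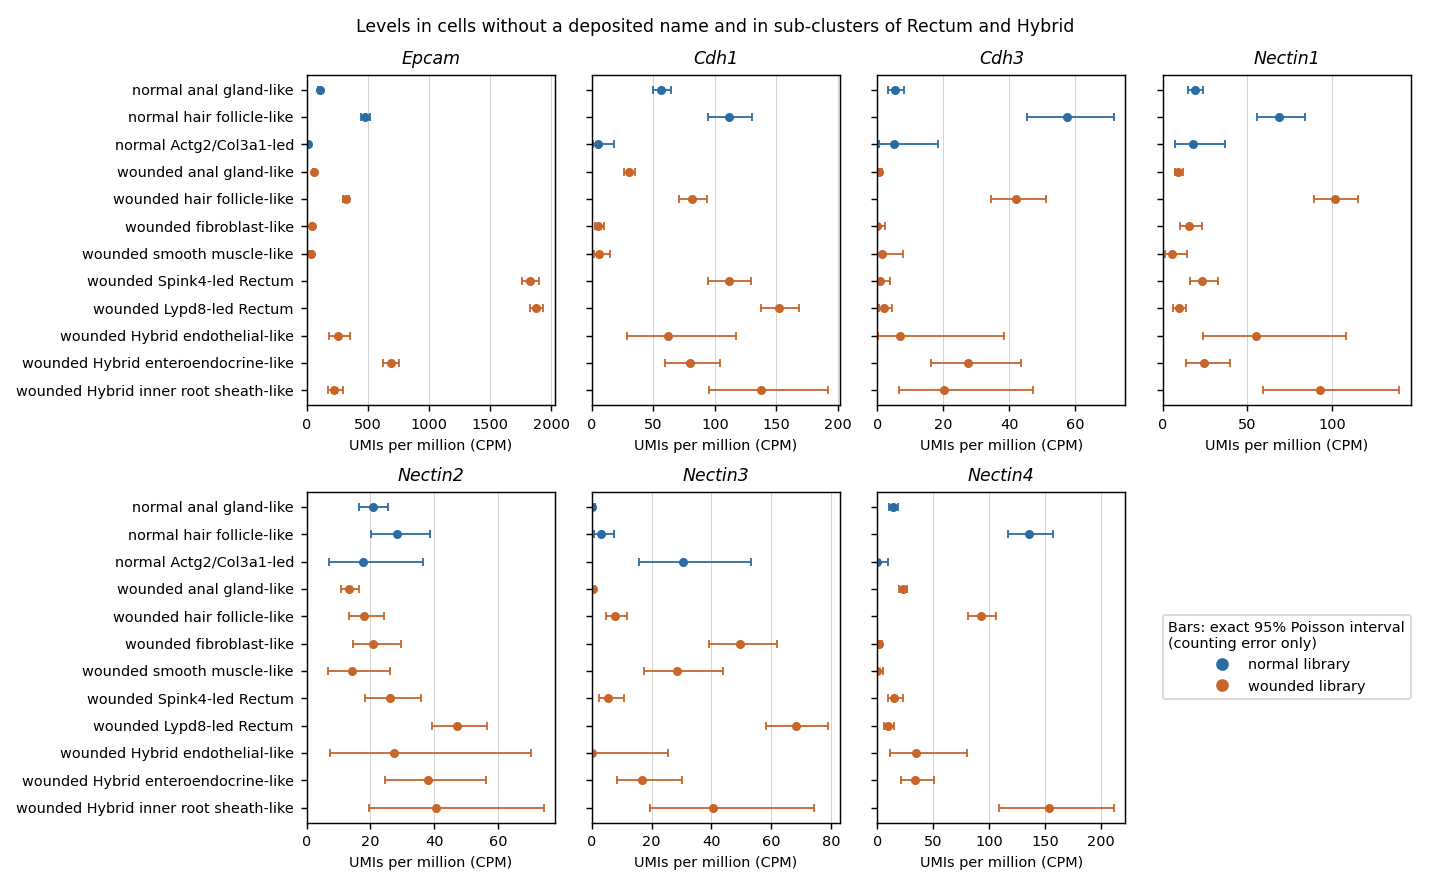
Levels of the 7 genes, in CPM with exact 95% Poisson intervals, in cells without a deposited name and in sub-clusters of wounded Rectum and Hybrid; normal in blue, wounded in orange. Nectin3 is high in Lypd8-led Rectum and fibroblast-like cells, and Nectin4 in hair follicle-like and inner root sheath-like cells.

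Whether cells carried the genes together was looked at after thinning to 2000 UMIs. Cdh1 and Cdh3 were both detected in 1.96% of normal Basal cells, where the product of their single shares is 1.58%. Epcam and Cdh1 were both detected in 24.6% of normal Suprabasal cells (product 22.6%) and 13.9% of wounded Suprabasal cells (13.4%). Nectin1 and Nectin4 were both detected in 3.14% of wounded Suprabasal cells (product 1.94%) and 3.83% of normal ones (4.08%). In wounded Rectum, 8.76% of 354 cells held Epcam and Nectin3 together (8.34%). Each product value lay within the exact interval of the observed share, apart from that of Nectin1 and Nectin4 in wounded Suprabasal [2.16 to 4.4], the cluster that holds both Krt15-led and Cst6-led cells.

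The proteins these genes work with were counted from lists of 40 genes (linkers, other cadherins, nectin relatives, Epcam partners and proteases, and regulators). In normal Rectum over stratified cells 8 of 29 tested were higher and 11 lower, where 25.9% of all genes were called in either direction. In wounded Rectum 9 of 32 were higher and 7 lower, where 30.6% of all genes were called. The Epcam partner Cldn7 was higher at log2 ratios of 4.97 (922 against 29.4 CPM) and 5.49 (844 against 18.8 CPM), and the intestinal cadherin Cdh17 at 8.06 and 5.83. Cd44, an adhesion receptor found in complexes with Epcam, was lower in normal Rectum at -3.67. Tspan8, an Epcam-associated tetraspanin, was higher in wounded Rectum at 5.41. The nectin linker Afdn, named after its values were seen, was at 68.2 CPM in normal Rectum and 72.2 in stratified cells (-0.08 [-0.54 to 0.34]), and at 113 and 122 CPM in the wounded library (-0.11 [-0.25 to 0.03]). In normal Rectum Epcam and Cldn7 were thus both higher, while the interval of Afdn held 0.

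Between normal layers, 6 of 26 listed genes were higher in Suprabasal and 4 lower, where 21.9% of all genes were called. Cdh13 (-3.44, 3.07 against 33.3 CPM), Cldn7 (-3.17) and the repressor of epithelial genes Snai2 (-2.34, 7.01 against 35.5 CPM) were lower, and the epidermal regulator Grhl3 (2.79, 15.3 against 2.22 CPM) higher. Of the normal Basal cells, 5 clustered with Rectum cells, in which Cldn7 was higher. Their part in the Cldn7 ratio was not tested. Normal Anal Canal had 5 of 28 higher than the TZ and 0 lower, a share of calls near the 17.8% of all genes. They were led by Cadm4 (3.61), Cldn7 (2.96), Ovol2 (2.19) and Grhl3 (1.62). Cldn7 and Epcam therefore had opposite signs in that comparison, 2.96 and -1.18.

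In the wound clusters most calls among the listed genes were lower. Regeneration over Basal had 0 of 31 higher and 13 lower (median -0.82, against -0.13 for all genes), where 13.4% of all genes were lower. Wound_Stress had 1 higher and 13 lower (median -0.83, against 0.03), where 12.5% of all genes were lower. In Regeneration the largest ratios were those of Grhl3 (-6.57), the nectin relative Cadm4 (-5.04, 2 against 29 UMIs), Tspan8 (-3.53) and Cdh4 (-3.18, 5 against 20 UMIs). Those of Cadm4 and Cdh4 thus rest on few UMIs. Wound_Stress had Cdh4 (-4.70, 1 against 20 UMIs), Cadm4 (-4.24, 2 against 29 UMIs) and Cadm1 (-3.79, 1.47 against 20.4 CPM) lower, and Grhl3 at 0 against 42 UMIs. Against the Krt15-led cells 4 of 28 were lower and 1 higher in Regeneration, near the 11.3% of all genes that were lower there. In Wound_Stress 7 of 26 were lower and 0 higher, where 10.3% of all genes were lower. The lower genes were led in both by Cadm1 (-3.24 and -5.15), with the catenin-family gene Jup (-1.20) lower in Wound_Stress. The number of lower genes was thus smaller with this reference.

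Over the 10 named clusters, likeness of pattern was measured as Pearson's r of log2(CPM + 1) among 7433 genes. This is a description, since clusters of a library share its depth and preparation. Nectin1 was most like Lypd3 (0.983), Pkp1 (0.978) and Serpinb5 (0.977), and Cdh3 most like Ptn (0.989), Rab7b (0.988) and Ppp1r14c (0.981). Nectin3, which had 48 UMIs in the normal clusters, was nearest to Gipc2 (0.993), Prr15l (0.991) and Oit1 (0.990). Nectin4 had Sprr1a and Klk13 (both 0.968) and Pmm1 (0.965) beside it, and Epcam had Chmp4c (0.972) and Tcf7l1 (0.971). For Cdh1 the nearest were Cox7a2 (0.976), R3hdm4 (0.972) and Ncstn (0.966), and for Nectin2 Trappc2l (0.912), Peli1 (0.888) and Pbxip1 (0.882). Among the 7 genes themselves, r was 0.87 for Nectin1 with Cdh3, Nectin1 with Nectin4, and Epcam with Nectin2, and -0.81 for Nectin3 with Cdh3.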

How the data were processed

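Sorted cells of 1 normal and 1 wounded library were sequenced with the 3′ droplet protocol. UMI counts, not normalized, were deposited for each gene and barcode from Cell Ranger on mm10 (3.1.0 in the submitters' processing notes; the file headers give 3.1.0 for normal and 4.0.0 for wounded), with 2564 barcodes and 17617944 UMIs, and 17216 barcodes and 88260050 UMIs. They also deposited natural log values for 939 and 4147 filtered cells with cluster names from Seurat 3.2.2. Undoing the log and subtracting 1 gives whole numbers (largest deviation 3.0e-11); how they were made is not given in the sources used here. Cells and names were taken from these tables and levels from the counts.

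The filters of the study (over 200 and under 5000 genes, under 25% mitochondrial UMIs) left 1548 and 5225 barcodes, and 1 named normal cell did not pass them. In the normal library only, the study further removed hair follicle cells from the basal cluster by Lgr5, Lhx2 and Tbx1. That step was not repeated here, and it shaped which normal cells hold a name. All passing cells were clustered per library with Seurat 5.3.0 in R 4.3.3 (2000 variable features without the 7 genes, cell-cycle regression, 10 components, resolution 0.2), giving 7 and 12 clusters. Clusters were called X-like from marker lists when the list's mean log2 ratio over the other cells was above 1 and at least 2 of its markers were among the top 10 genes. At least 3 of its markers had to be detected, and the top 10 had to hold more of them than of any other list. Scrublet in scanpy 1.11.5, at an expected rate of 6%, called 3 and 0 cells, which is too few for its calls to be used. Doublets were therefore not removed, and leaving out the 90 and 283 highest scores was tried instead.

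Counts were summed per cluster. Ratios have exact binomial, levels exact Poisson and shares exact Clopper-Pearson intervals at 95% (scipy 1.17.1, Python 3.11.15), for counting error only. A count of 0 was read as 3 UMIs. The interval and call were tested on simulated counts. The genes and lists were chosen with earlier results of these data known. All 7 genes are named; of the 40 other junction genes, at most 4 called genes with the largest ratios per comparison; and the 3 genes most like each of the 7 (at least 100 UMIs in each library, waived for Nectin3). The splits of wounded Suprabasal and Rectum, the pairings by leading genes, the removal of anal gland-like cells and the comparisons of unnamed cells between libraries were added after seeing the data. Genes' positions are from GENCODE M21 and promoter windows from RefSeq. Some genes that this rule would name are not reported here.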

Additional observations from a re-analysis of the deposited data

Results flagged for a closer look

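Barcodes that failed the filters entered no comparison, and they still held UMIs of the 7 genes. In the wounded library 11991 such barcodes (median 1937 UMIs, median 60.0% mitochondrial UMIs) held 749 Nectin3 UMIs, or 22.7 CPM. In the normal library 1015 such barcodes (median 1089 UMIs, 75.3% mitochondrial) held 17 Nectin3 UMIs, or 10.9 CPM. The log2 ratio was 1.06 [0.37 to 1.84], with 1 library per condition and an interval for counting error only. Nectin3 was picked out because its level in these unused wounded barcodes was above that in the normal ones. Rectal markers summed to 1377 CPM in the wounded and 1292 CPM in the normal failing barcodes. In the same barcodes Epcam was at 375 and 355 CPM (0.08 [-0.04 to 0.20]), while Cdh3 (-2.38), Nectin4 (-1.34) and Nectin1 (-1.21) were lower in the wounded library. Cdh1 (-0.73 [-0.97 to -0.50]) and Nectin2 (-0.50 [-0.90 to -0.08]) were lower there as well. What moved these values was not tested.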

How the results depend on the processing

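Of the alternative values for counts of called genes, shares of cells and cadherin shares, 99 kept near the value reported (counts within 1.5 times), 9 were higher and 9 lower, and of the single ratios 580 stayed within their intervals, 92 moved outside them and 0 called ratios changed sign. Normal Suprabasal over Basal had 2 calls in place of 1 with median-of-ratios scaling, with the mean of per-cell CPM and with under 10% mitochondrial UMIs. Anal Canal over TZ had 0 with the deposited whole numbers and 2 with no minimum of UMIs. Wounded Suprabasal over Basal had 3 with median-of-ratios scaling and 2 between the Cst6-led and Krt15-led cells. Regeneration over Basal had 1 with median-of-ratios scaling, 1 without anal gland-like cells and 4 over the Krt15-led cells. Hybrid over Basal had 1 with the mean of per-cell CPM and 1 with at least 100 UMIs, and Hybrid over Rectum 3 with under 10% mitochondrial UMIs. Basal wounded over normal had 0 under both other pairings, and Suprabasal wounded over normal 1 with the mean of per-cell CPM and 1 for the Cst6-led cells. At resolution 0.4, 857 in place of 1534 unnamed cells fell into a named class. Beyond what each alternative changes by construction, the cause was not tested. Median-of-ratios scaling shifted all ratios of a comparison by -0.21 to 0.27, most in normal Rectum. No paired analysis was possible because each condition is 1 library, and no replicate could be left out. Nectin3 in stratified cells and Cdh3 in Rectum lie near the counting floor, which limits their ratios.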

Other observations

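Small groups outside the deposited tables were too few for a comparison. In 26 normal cells led by Igkc and Igha, Nectin2 was at 65.2 CPM [32.5 to 117] from 11 UMIs, and Epcam at 35.6 CPM from 6 UMIs. In 33 wounded cells led by Fabp4 and Cd74, Nectin2 was at 43.3 CPM [18.7 to 85.3] from 8 UMIs, and no Cdh1 or Cdh3 UMI was counted.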
